A study of Homo sapiens and Mus musculus with 4 samples.

Results

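The genes described here are the 5 subunits of the transcription factor NF-kappa-B and 5 genes that act on the pathway or are switched on by it and feed back on it. The subunits are NFKB1, NFKB2, REL, RELA and RELB, and the feedback genes are NFKBIA, NFKBIE, TNFAIP3, BIRC3 and TRAF1. They were taken by symbol, as 10 human genes in the human lines and the 10 mouse genes of the same symbol in the mouse lines, which makes 20 of the 60736 genes in the table. All 20 were found.

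Bulk messenger RNA was sequenced from 4 cell lines, with 1 library per line, no replicate and no treatment named in the labels. The human lines were Jurkat, which derives from a T-cell leukaemia and stands for CD4 T cells in the study, and TALL104, a CD8-type leukaemic T line whose medium held added interleukin-2. The mouse lines were EL4, which derives from a T lymphoma, and IVA12, a B-lineage hybridoma. Each line came from ATCC and had its own culture medium, so line and culture condition cannot be told apart. A hybridoma is a fusion product and each line is a tumour or fusion line, which limits it as a model of a resting lymphocyte. Comparisons stayed within a species, so that Jurkat was set against TALL104 and EL4 against IVA12. A line with 1 library gives no spread between libraries to set a difference against, and therefore no test was made. Intervals are 95% intervals for the counting of reads and cover counting error only. A ratio was counted as a difference when it went past 1.5-fold on FPKM + 1, where FPKM stands for fragments scaled to the length of the gene and the reads counted in the library.

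NF-kappa-B factors are dimers of related proteins that share the Rel homology domain. RELA, REL and RELB carry a transactivation domain, while NFKB1 and NFKB2 are made as the long precursors p105 and p100, which are cut to p50 and p52. In resting lymphocytes the dimers are held in the cytoplasm by inhibitors of the I-kappa-B family. Signals from antigen receptors, tumour necrosis factor receptors and Toll-like receptors activate the kinases IKBKB and CHUK with the scaffold IKBKG, which leads to loss of the inhibitor and entry of the dimer into the nucleus. A second route, through MAP3K14 and CHUK, processes p100 and frees RELB with p52. Many components are themselves transcribed by NF-kappa-B, among them NFKBIA, NFKBIE, TNFAIP3, BIRC3, TRAF1, NFKB1, NFKB2, REL and RELB. Messenger RNA levels do not measure the nuclear activity of the factor.

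The reads counted per library, which scale the FPKM, ran from 25286728 to 34783047. They were recovered from the steps between FPKM values and are not the number of reads sequenced. Between 33.1% and 35.0% of the genes of a library's own species were detected at 1 FPKM or more. Of the T-cell markers, 10 of 10 were detected in Jurkat, 9 of 10 in TALL104 and 10 of 10 in EL4. Their summed level was 1131, 917 and 846 FPKM in these lines. In IVA12 the T-cell sum was 13.5 FPKM, with 3 of 10 detected. The markers of antibody-secreting cells summed to 2151 FPKM in IVA12, with 6 of 6 detected, and to between 26.3 and 93.5 in the other libraries. The B-cell markers summed to 250 FPKM in IVA12 and to between 2.34 and 29.8 in the others. Of those in IVA12, Ms4a1, Cd79b and Blnk were detected, while the defining gene Pax5 had 0.156 FPKM. In TALL104 the natural killer cell markers summed to 1251 FPKM, against 11.9 in Jurkat and at most 0.0681 in the mouse lines. Myeloid markers summed to at most 1.65 FPKM in any library. Natural killer cell markers thus differed within the human pair, and T-cell and antibody-secreting cell markers within the mouse pair. Of the human T-cell markers 5 of 10 were within 1.5-fold, and so were all mouse natural killer cell and myeloid markers found. The part of the markers in the values of the members was not tested.

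The promoters of the human members were searched for the kappa-B consensus GGGRNNYYCC, the 10-base site that NF-kappa-B dimers bind. In it R is A or G, Y is C or T and N is any base. A match is a stretch of letters, and binding in these lines was not measured. The RefSeq windows on GRCh38.p14 run from 250 bases before to 50 bases after a transcript start, and both strands were searched. Of the 10 members, 8 had a window, and 6 of these 8 held at least 1 match: NFKB1, NFKB2, REL, NFKBIA, TNFAIP3 and BIRC3. RELA and TRAF1 held no match in their windows, which says only that these letters are not there. Of all 27305 genes with a window, 13.3% held a match, and of all 35116 windows 11.3% did. One site is shown per member, on the strand of the gene, with 10 bases on either side and the match in capitals. The match of REL overlaps a second match shifted by 1 base, and those of NFKBIA, TNFAIP3 and BIRC3 fit the consensus when read on the other strand.
NFKB1, chr4:102501300-102501329, plus strand: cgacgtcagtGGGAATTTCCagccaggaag
NFKB2, chr10:102395674-102395703, plus strand: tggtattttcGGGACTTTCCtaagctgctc
REL, chr2:60881517-60881546, plus strand: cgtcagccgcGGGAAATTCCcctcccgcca
NFKBIA, chr14:35404811-35404840, minus strand: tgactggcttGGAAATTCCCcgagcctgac
TNFAIP3, chr6:137867194-137867223, plus strand: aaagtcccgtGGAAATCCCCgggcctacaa
BIRC3, chr11:102317275-102317304, plus strand: tttgggtcatGGAAATCCCCgagtgggttt

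The match of NFKB1 began 49 bases before the transcript start, that of NFKB2 21 bases, that of REL 47 bases, that of NFKBIA 81 bases, that of TNFAIP3 55 bases and that of BIRC3 199 bases. NFKB2 held 5 matches in 2 of its 3 windows, among them 2 that overlap with a shift of 1 base. REL, TNFAIP3 and BIRC3 held 2 each, and those of REL overlap. Among human genes at 1 FPKM or more in Jurkat or TALL104, 29.9% of the 1561 with a match and 25.5% of the 7760 without one were higher in TALL104, and 33.4% and 35.3% were higher in Jurkat. These shares are a description of 2 libraries. The mouse promoters were not analysed here.

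In the human pair, 7 of the 10 members were past 1.5-fold and higher in TALL104, and 0 were past it and higher in Jurkat. They were NFKB1, NFKB2, REL, RELB, NFKBIA, BIRC3 and TRAF1. Of all 32738 human genes, 11.4% were higher in TALL104 and 13.8% in Jurkat by the same rule. Among the 12214 genes at 1 FPKM or more in either line the shares were 28.4% and 34.2%. Counted either way the shares were 25.3% of all genes and 62.6% of those at 1 FPKM or more, so that 7 of 10 past the threshold was near the share of expressed genes, and 70% of the members against 28.4% of expressed genes were higher in TALL104. The median log2 ratio of the members was −0.97, Jurkat over TALL104, beside 0.00 for all genes and 0.10 for genes at 1 FPKM or more in either line. In bulk RNA, fewer cells that express a gene and less of its RNA per cell cannot be told apart. Every one of the 10 ratios was below 0, from −2.39 to −0.11, although the interval of NFKBIE included 0. Scaling the pair by its median ratio shifted TALL104 up by 0.11 on the log2 scale and made the count 8, with RELA added. The share of all genes past the threshold after this scaling was not computed.

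In the mouse pair, 4 of the 10 members were past 1.5-fold and higher in EL4, and 3 were higher in IVA12. Nfkb1, Nfkb2, Nfkbie and Tnfaip3 were higher in EL4, and Relb, Nfkbia and Birc3 were higher in IVA12. Of all 27998 mouse genes, 9.75% were higher in EL4 and 11.2% in IVA12, and among the 10801 genes at 1 FPKM or more in either line 23.8% and 26.5% were. Counted either way the shares were 21.0% and 50.3%. The median ratio of the members was 0.01, EL4 over IVA12, beside 0.00 for all genes. The split was thus between members and had no common direction. For 5 of the 7 called members the whole counting interval lay past the threshold, while those of Nfkb2 and Relb reached across it. In the human pair the interval lay past it for all 7 called members, and that of RELA reached across it.

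**Figure D1:**
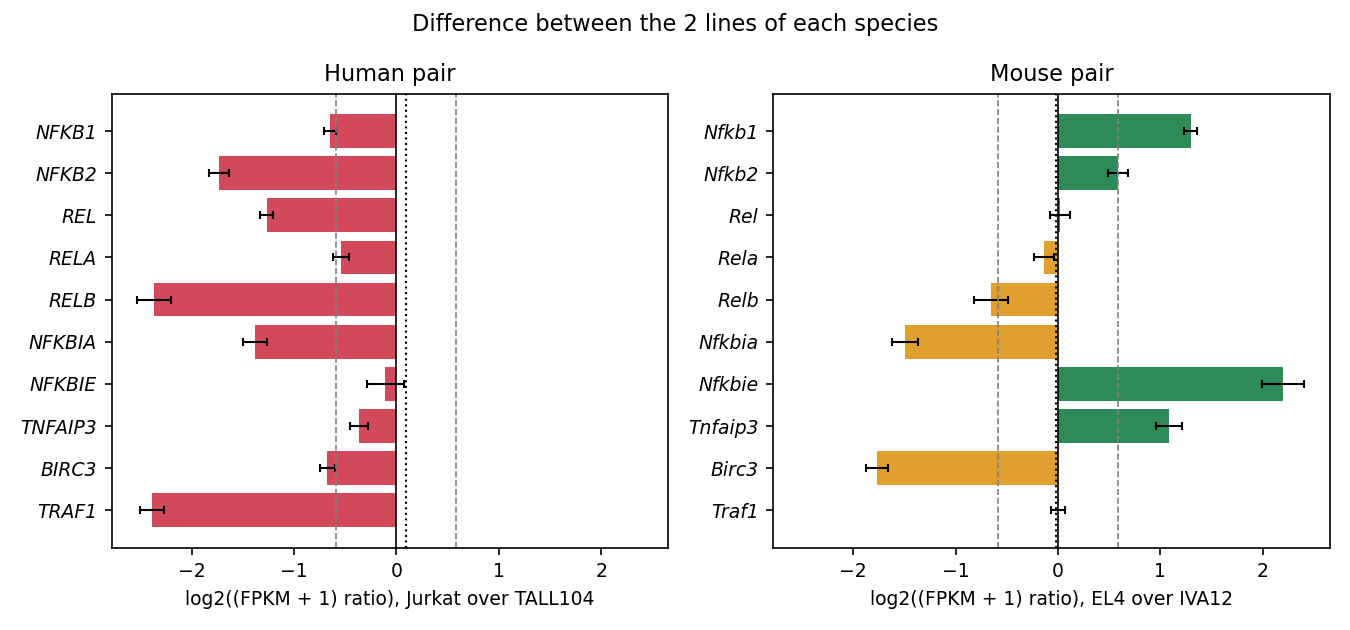
Log2 ratio of FPKM + 1 for each member, Jurkat over TALL104 on the left and EL4 over IVA12 on the right, with 95% counting intervals as error bars, 1.5-fold as dashed lines and the median of genes at 1 FPKM or more in both lines as a dotted line. Human bars point toward TALL104 for all 10 members, while the mouse bars point both ways, from −1.77 for Birc3 to 2.20 for Nfkbie.

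NFKB1 encodes p105 and p50. On hg19 it lies at chr4:103422487-103538459 on the plus strand, and mouse Nfkb1 lies at chr3:135584655-135691547 of mm10 on the minus strand. Its level was 16.4 FPKM in Jurkat and 26.3 in TALL104, a 1.61-fold difference (1.54 to 1.68). It stood above 71.3% of the detected genes in Jurkat and 84.7% in TALL104, and it was the highest of the 10 members in both human lines. In mouse the level was 17.2 FPKM in EL4 and 6.42 in IVA12, 2.68-fold higher in EL4 (2.55 to 2.82). NFKB1 was thus higher in TALL104 than in the CD4-type human line, and lower in the B-lineage mouse line than in the mouse T line.

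NFKB2 encodes p100 and p52, the partner of RELB. The human gene lies at chr10:104153867-104162281 on the plus strand and the mouse gene at chr19:46304320-46312385 on the plus strand. Jurkat had 5.03 FPKM and TALL104 had 19.0, a 3.78-fold difference (3.49 to 4.10). EL4 had 21.6 FPKM and IVA12 had 14.0, a 1.54-fold difference (1.43 to 1.65) in which the log2 ratio, 0.59, was at the threshold. Jurkat was the only one of the 4 libraries in which the gene was under 10 FPKM. Exons of mouse Nfkb2 overlap those of Psd on the opposite strand, and the strand setting used in counting is not given in the sources used here, so reads of both genes cannot be told apart.

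RELA, the p65 subunit, is the main activating partner of p50. It lies at chr11:65421070-65430561 on the minus strand in human and at chr19:5637483-5648130 on the plus strand in mouse. It had 10.1 FPKM in Jurkat and 15.2 in TALL104, a difference of 1.5-fold (1.41 to 1.59) before the pseudocount and of −0.54 in log2 ratio after it, within the threshold. It had 18.8 FPKM in EL4 and 20.8 in IVA12, a difference of 1.10-fold (1.03 to 1.19). Among the 5 subunits RELA was the one within 1.5-fold in both pairs.

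REL, known as c-Rel, is an activating subunit that is abundant in lymphocytes. It lies at chr2:61108626-61158747 on the plus strand in human and at chr11:23736847-23770970 on the minus strand in mouse. Jurkat had 5.85 FPKM and TALL104 had 15.5, a 2.65-fold difference (2.52 to 2.78). The mouse lines had 5.35 FPKM in EL4 and 5.25 in IVA12, and the ratio of 1.02 had an interval from 0.936 to 1.11. REL thus differed between the human T lines, while the mouse T and B-lineage lines were not separated at this depth.

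RELB is the subunit freed when p100 is processed. It lies at chr19:45504719-45541450 on the plus strand in human and at chr7:19606217-19629438 on the minus strand in mouse. It was the lowest subunit in every library. Jurkat had 0.654 FPKM from 69 reads, and TALL104 had 7.53 FPKM from 647 reads, an 11.5-fold difference (8.97 to 15.0). EL4 had 1.99 FPKM and IVA12 had 3.72, 1.86-fold higher in IVA12 (1.58 to 2.20). RELB in Jurkat was the only subunit value under 1 FPKM.

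**Figure D2:**
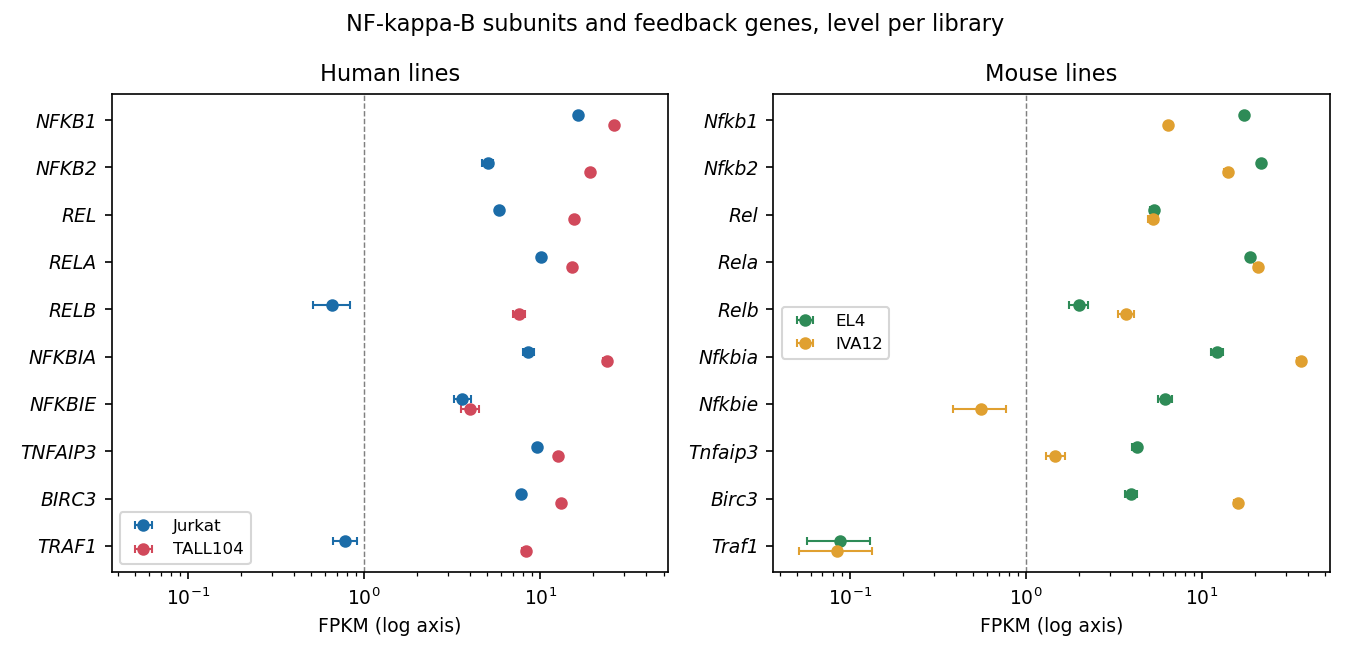
Level in FPKM of each member in each library on a log axis, with 95% counting intervals and a dashed line at 1 FPKM, human lines on the left and mouse lines on the right. TALL104 lies to the right of Jurkat for every human member, and the 2 intervals meet for NFKBIE but for no other. RELB and TRAF1 are the 2 values of Jurkat under 1 FPKM, and Traf1 is under 1 FPKM in both mouse lines.

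The summed level of the subunits was 38.0 FPKM in Jurkat and 83.4 in TALL104. EL4 had 65.0 FPKM and IVA12 had 50.2. Their make-up differed between the lines. In Jurkat NFKB1 held 43.0% of the sum (41.9 to 44.1), RELA 26.6%, REL 15.4%, NFKB2 13.2% and RELB 1.72% (1.32 to 2.12). In TALL104 the shares were more even, with NFKB1 at 31.5% (30.7 to 32.2), NFKB2 at 22.8%, REL at 18.5%, RELA at 18.2% and RELB at 9.02% (8.38 to 9.67). In EL4 Nfkb2 led with 33.2% (32.2 to 34.3), ahead of Rela at 29.0%, Nfkb1 at 26.5%, Rel at 8.24% and Relb at 3.07%. In IVA12 Rela led with 41.4% (39.9 to 42.9), followed by Nfkb2 at 28.0%, Nfkb1 at 12.8%, Rel at 10.5% and Relb at 7.40%. The shares of RELB and NFKB2, the subunits of the second route, were both higher in TALL104 than in Jurkat. In mouse the share of Relb was higher in IVA12. That of Nfkb2 was higher in EL4 on the FPKM scale, but in reads it was 18.8% in EL4 and 19.8% in IVA12. The shares of FPKM rest on the gene lengths behind the values, while reads count longer genes more. The recovered length was 12061 bases for mouse Nfkb1 and at least 6257 for human NFKB1. Neither was checked against the transcripts expressed. In shares of subunit reads, REL led in TALL104 with 32.9%, beside 31.0% for NFKB1, and Nfkb1 led in EL4 with 55.0% and in IVA12 with 33.1%. The recovered lengths of human NFKB1 and REL are least lengths, so their reads may be too few and this order may differ.

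**Figure D3:**
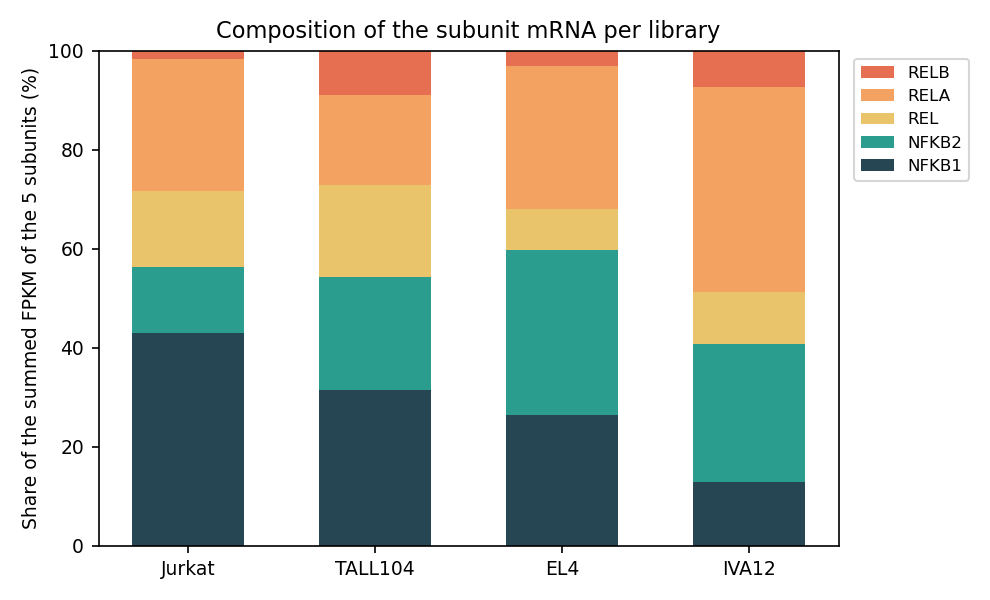
Share in percent of each of the 5 subunits in their summed FPKM, 1 stacked bar per library. NFKB1 holds the largest share in Jurkat, 43.0%, and in TALL104, 31.5%, Nfkb2 in EL4, 33.2%, and Rela in IVA12, 41.4%.

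NFKBIA encodes I-kappa-B alpha, the inhibitor that is degraded on stimulation and remade from an NF-kappa-B target gene. It lies at chr14:35870285-35873955 on the minus strand in human and at chr12:55489410-55492647 on the minus strand in mouse. Its level was 8.55 FPKM in Jurkat and 23.9 in TALL104, a 2.79-fold difference (2.55 to 3.05). It was 12.2 FPKM in EL4 and 36.2 in IVA12, 2.97-fold higher in IVA12 (2.70 to 3.27). NFKBIA was the highest member in IVA12, above 83.4% of that line's detected genes. In relation to the sum of the subunits it was 0.225 in Jurkat and 0.286 in TALL104. EL4 had 0.188 and IVA12 had 0.722.

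NFKBIE encodes I-kappa-B epsilon, an inhibitor of the same family. It lies at chr6:44225903-44233525 on the minus strand in human and at chr17:45555703-45563169 on the plus strand in mouse. Jurkat had 3.61 FPKM and TALL104 had 3.98, and the ratio of 1.10, TALL104 over Jurkat, had an interval from 0.936 to 1.29. EL4 had 6.15 FPKM from 479 reads and IVA12 had 0.555 from 34 reads, an 11.1-fold difference (7.82 to 16.2). NFKBIE had the smallest difference of the human members and the largest of the mouse members. NFKBIA and NFKBIE thus went opposite ways between EL4 and IVA12. By the distance of log2(FPKM + 1) over the 4 libraries, among 15550 genes whose symbol is shared by both species, the genes with levels nearest to NFKBIE were FRAT2 at 0.49, PWWP2B at 0.60 and OSBPL5 at 0.67.

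TNFAIP3 encodes A20, an enzyme that edits ubiquitin chains and ends the signal upstream of the kinases. It lies at chr6:138188351-138204451 on the plus strand in human and at chr10:19000910-19015657 on the minus strand in mouse. The human lines had 9.60 FPKM in Jurkat and 12.6 in TALL104, a difference of 1.32-fold (1.23 to 1.41) within the threshold. The mouse lines had 4.25 FPKM in EL4 and 1.47 in IVA12, 2.89-fold higher in EL4 (2.52 to 3.31). TNFAIP3 was thus low in IVA12, the library in which Nfkbia was highest. Exons of human TNFAIP3 overlap those of WAKMAR2 on the opposite strand, with the same limit on telling their reads apart.

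BIRC3 encodes cIAP2, a ubiquitin ligase that works on tumour necrosis factor receptor complexes and, with TRAF proteins, keeps MAP3K14 low. It lies at chr11:102188215-102210134 on the plus strand in human and at chr9:7848699-7873186 on the minus strand in mouse. It had 7.80 FPKM in Jurkat and 13.1 in TALL104, a 1.67-fold difference (1.58 to 1.77). It had 3.97 FPKM in EL4 and 15.9 in IVA12, 4.01-fold higher in IVA12 (3.67 to 4.39). BIRC3 and NFKBIA were the 2 feedback genes higher in TALL104 and in IVA12.

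TRAF1 encodes an adaptor of tumour necrosis factor receptors that binds TRAF2 and the cIAP proteins. It lies at chr9:123664671-123691451 on the minus strand in human and at chr2:34941750-34961772 on the minus strand in mouse. Jurkat had 0.780 FPKM from 175 reads and TALL104 had 8.31 from 1519 reads, a 10.7-fold difference (9.10 to 12.5). EL4 had 0.0882 FPKM from 25 reads and IVA12 had 0.0852 from 19 reads, and their ratio of 1.03 had an interval from 0.547 to 1.99. With the pseudocount of 1 FPKM, TRAF1 had the largest log2 ratio of the human members, −2.39 beside −2.37 for RELB, while RELB had the larger one with pseudocounts of 0.1, −3.34 against −3.26, and 0.01, −3.50 against −3.40. TRAF1 was the only member under 1 FPKM in both lines of a pair. The genes nearest to it in level over the 4 libraries were SIDT1 at a distance of 0.24, GCHFR at 0.29 and S100Z at 0.30.

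Of the members, 8 of 10 were detected at 1 FPKM or more in Jurkat, 10 of 10 in TALL104, 9 of 10 in EL4 and 8 of 10 in IVA12, where 33.2%, 33.1%, 34.3% and 35.0% of all genes of the species were. Their order by level differed between the libraries. In Jurkat NFKB1 came first, then RELA, TNFAIP3, NFKBIA, BIRC3, REL, NFKB2, NFKBIE, TRAF1 and RELB. The intervals of the ratios did not separate RELA from TNFAIP3, 1.05-fold (0.987 to 1.13), or TRAF1 from RELB, 1.19-fold (0.897 to 1.6). In TALL104 the order was NFKB1, NFKBIA, NFKB2, REL, RELA, BIRC3, TNFAIP3, TRAF1, RELB and NFKBIE, with REL and RELA and also BIRC3 and TNFAIP3 not separated. In EL4 it was Nfkb2, Rela, Nfkb1, Nfkbia, Nfkbie, Rel, Tnfaip3, Birc3, Relb and Traf1, with Tnfaip3 and Birc3 not separated. In IVA12 it was Nfkbia, Rela, Birc3, Nfkb2, Nfkb1, Rel, Relb, Tnfaip3, Nfkbie and Traf1, and each neighbour was separated from the next.

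Side by side, RELB, NFKBIA and BIRC3 were higher in TALL104 and in IVA12, and NFKB1 and NFKB2 were higher in TALL104 and in EL4. REL and TRAF1 were past the threshold in the human pair alone, NFKBIE and TNFAIP3 in the mouse pair alone, and RELA in neither. The share of all genes in each of these combinations was not computed, so the grouping is a description only. The pairs share no library. Whether the human and mouse differences differ from each other was not tested.

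Ratios between 2 genes of the same library do not depend on how libraries are scaled, and 7 of the 11 computed, chosen after the values were seen, describe the balance of the pathway. NFKBIA over RELA, the inhibitor over its main client, was 0.844 in Jurkat (0.774 to 0.921) while TALL104 had 1.57 (1.48 to 1.68), a 1.86-fold difference (1.67 to 2.07). It was 0.649 in EL4 (0.591 to 0.713) while IVA12 had 1.74 (1.62 to 1.88), a 2.69-fold difference (2.39 to 3.02). NFKBIA was thus below RELA in Jurkat and EL4 and above it in TALL104 and IVA12, on the FPKM scale. In reads it was below RELA in TALL104 too, 1605 against 2348, and near it in IVA12, 1445 against 1427. NFKBIE over NFKBIA was 0.422 in Jurkat and 0.167 in TALL104. EL4 had 0.504 and IVA12 had 0.0153, and these lines differed 32.9-fold (22.9 to 47.2).

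Ratios among the subunits also moved. RELB over RELA was 0.0646 in Jurkat and 0.497 in TALL104, a 7.69-fold difference (5.95 to 9.92), and it was 0.106 in EL4 and 0.179 in IVA12, a 1.69-fold difference (1.41 to 2.01). NFKB1 over NFKB2, the precursors of p50 and p52, was 3.25 in Jurkat and 1.38 in TALL104, and 0.797 in EL4 and 0.457 in IVA12. On the FPKM scale NFKB1 thus exceeded NFKB2 in the human lines and was below it in the mouse lines, while in reads Nfkb1 exceeded Nfkb2 in EL4, 6674 against 2283, and in IVA12, 1959 against 1168. REL over RELA was 0.577 in Jurkat and 1.02 in TALL104, and 0.284 in EL4 and 0.253 in IVA12.

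The feedback genes were also set against their closest relatives. BIRC3 over BIRC2, which encodes cIAP1, was 0.483 in Jurkat and 0.506 in TALL104, and the 1.05-fold difference had an interval from 0.969 to 1.13. BIRC2 differed alongside, with 16.1 FPKM in Jurkat and 25.8 in TALL104. In mouse the ratio was 0.436 in EL4 and 1.46 in IVA12, a 3.35-fold difference (2.98 to 3.77), with Birc2 at 9.11 and 10.9 FPKM. TRAF1 over TRAF2 was 0.0879 in Jurkat and 1.17 in TALL104, a 13.3-fold difference (11.1 to 16.0). In EL4 and IVA12 it was 0.0225 and 0.0187. The ratios not drawn follow in the order Jurkat, TALL104, EL4 and IVA12. The I-kappa-B family gene NFKBIB over NFKBIA was 1.26, 0.282, 0.714 and 0.307. TNFAIP3 over RELA was 0.948, 0.833, 0.226 and 0.0709. RELB over NFKB2 was 0.130, 0.396, 0.0923 and 0.265, and TRAF3 over TRAF2 was 1.84, 1.49, 3.60 and 2.09.

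**Figure D4:**
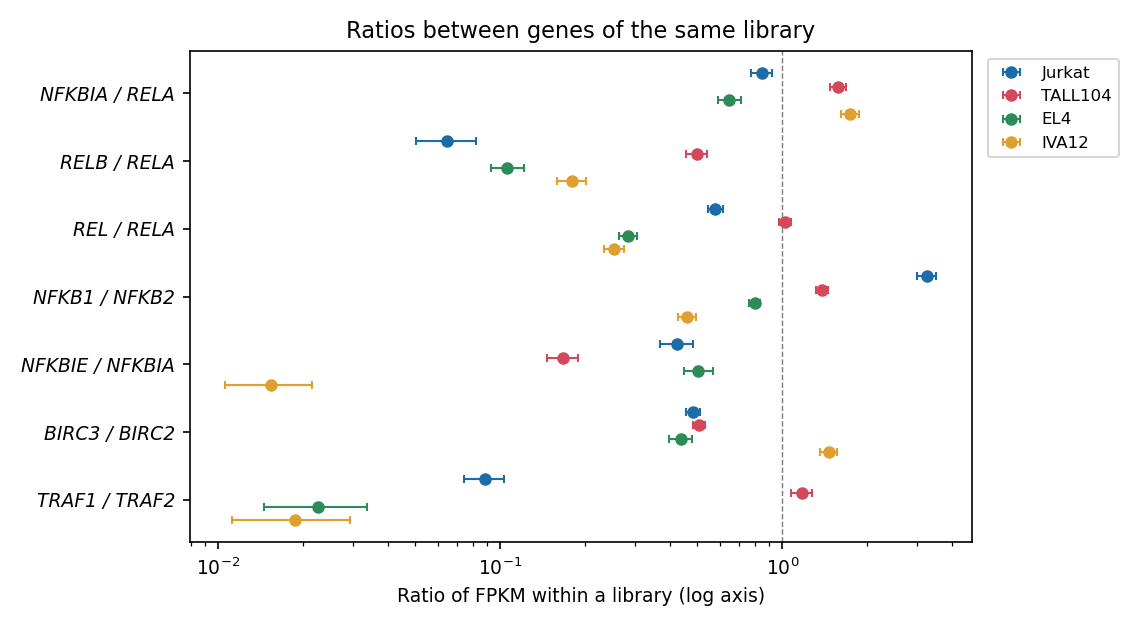
Ratio of FPKM between 2 genes of the same library on a log axis, with 95% counting intervals and a dashed line at 1, named by the human symbols and coloured by library. NFKBIA over RELA lies above 1 in TALL104, 1.57, and IVA12, 1.74, and NFKBIE over NFKBIA is lowest in IVA12, 0.0153.

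The rest of the pathway was read from 79 further symbols in 8 lists, of which 72 had a human and 78 a mouse gene in the table. The human genes IKBKG, MAP3K14, IKBKE, OTUD7B, SOD2, CCL3 and CCL4 and the mouse gene of BCL2A1 were not analysed here. In human, 38 of 72 (52.8%) were higher in TALL104 and 8 (11.1%) in Jurkat, with a median ratio of −0.66. Of all human genes 11.4% and 13.8% were, and of those at 1 FPKM or more in either line 28.4% and 34.2%. In mouse, 11 of 78 (14.1%) were higher in EL4 and 18 (23.1%) in IVA12, with a median of 0.00. Of all mouse genes 9.75% and 11.2% were, and of those at 1 FPKM or more 23.8% and 26.5%. The mouse shares were thus near or below those of expressed genes. The counts by list below are to be read beside the same shares. The human members and the wider pathway thus leaned the same way, and both mouse medians were near 0.

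In the human pair the ligands and receptors held the widest differences of the 8 lists. Of 7 ligands, 6 were higher in TALL104 and 0 in Jurkat. LTB, the lymphotoxin beta chain that signals to the second route, had 1.37 FPKM in Jurkat and 217 in TALL104, and TNFSF14, or LIGHT, had 0.0894 and 106. In mouse, 1 ligand was higher in each line: Tnf had 5.20 FPKM in EL4 and 1.25 in IVA12, and Ltb had 0.164 and 3.91. Of 15 receptors, 5 were higher in TALL104 and 3 in Jurkat, and 3 were higher in EL4 and 6 in IVA12. IL18R1, a receptor chain for interleukin-18, had 0.0199 FPKM from 3 reads in Jurkat and 60.4 in TALL104, a 3036-fold difference (1039 to 14726). TNFRSF1B, the second receptor for tumour necrosis factor, had 0.145 and 34.7 FPKM. Mouse Il18r1 had 11.6 FPKM in EL4 and 0.0164 from 2 reads in IVA12, and Tnfrsf8, or CD30, had 5.75 and 0.0572.

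Adaptors and ubiquitin ligases had log2 ratios from −1.35 to 0.66 in the human pair and from −2.14 to 0.57 in the mouse pair. Of 13 adaptors and ubiquitin ligases, 6 were higher in TALL104 and 1 in Jurkat, and 0 were higher in EL4 and 2 in IVA12. TRAF5 had 8.48 FPKM in Jurkat and 23.1 in TALL104, and TRADD, the adaptor of tumour necrosis factor receptor 1, had 2.45 and 7.71. Traf5 had 0.177 FPKM in EL4 and 4.18 in IVA12, and Rnf31, the catalytic subunit of the linear ubiquitin ligase, had 3.70 and 15.0. Of the 5 genes of the antigen-receptor branch, 3 were higher in TALL104 and 0 in Jurkat. Jurkat had 4.58 FPKM of its protease MALT1 and TALL104 had 19.6.

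Between EL4 and IVA12, 1 gene of the antigen-receptor branch was past the threshold. It was Prkcb, a protein kinase C that serves the B-cell receptor, and it had 24.1 FPKM in the T line EL4 and 0.0155 from 3 reads in the B-lineage IVA12, a 1556-fold difference (532 to 7548). Prkcq, the isoform that serves the T-cell receptor, is listed at 0 in both mouse lines. Malt1 had 14.9 FPKM in EL4 and 9.88 in IVA12, a log2 ratio of 0.55 within the threshold.

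Of the 6 human genes of the kinase list, 4 were higher in TALL104 and 2 in Jurkat. TAB2, an adaptor of the kinase TAK1, had 12.9 FPKM in Jurkat and 39.0 in TALL104, and IKBKB had 8.20 and 18.2. Of 9 mouse genes, 2 were higher in EL4 and 0 in IVA12. They were Ikbke, with 3.15 FPKM in EL4 and 0.351 in IVA12, and Map3k14, the kinase of the second route, with 2.47 and 0.435.

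Of the 4 other I-kappa-B family genes, 3 were higher in TALL104 and 1 in Jurkat, and 1 was higher in EL4 and 2 in IVA12. NFKBIZ and BCL3 encode nuclear I-kappa-B proteins that act with p50 or p52 on DNA. NFKBIZ had 0.0926 FPKM from 19 reads in Jurkat and 23.1 in TALL104, a log2 ratio of −4.46, and BCL3 had 0.177 and 3.25. Nfkbiz had 0.948 FPKM in EL4 and 3.07 in IVA12, and Bcl3 had 0.0628 from 5 reads and 9.91. The mRNA of these 2 genes was higher in TALL104 and in IVA12, as that of NFKBIA was. In each pair 1 gene of the list went the other way, with a log2 ratio of 0.61 toward Jurkat and of 0.86 toward EL4.

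Of 9 other human restraints of the pathway, 4 were higher in TALL104 and 0 in Jurkat. CYLD, which removes ubiquitin chains, had 5.25 FPKM in Jurkat and 31.4 in TALL104, and N4BP1 had 8.02 and 30.4. Of 10 in mouse, 0 were higher in EL4 and 1 in IVA12, which was Tnip2 with 5.09 and 14.5 FPKM. Tax1bp1, a partner of A20, had 23.9 and 16.8 FPKM, within the threshold. Of 13 other human targets, 7 were higher in TALL104 and 1 in Jurkat. BCL2A1, a survival gene, had 0.185 FPKM from 7 reads in Jurkat and 14.5 in TALL104. CD83 went the other way, with 18.0 FPKM in Jurkat and 1.18 in TALL104. Of 15 in mouse, 3 were higher in EL4 and 6 in IVA12. Irf4, which antibody-secreting cells also use, had 9.73 FPKM in EL4 and 151 in IVA12, and Tnfaip8 had 13.0 and 0.888.

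**Figure D5:**
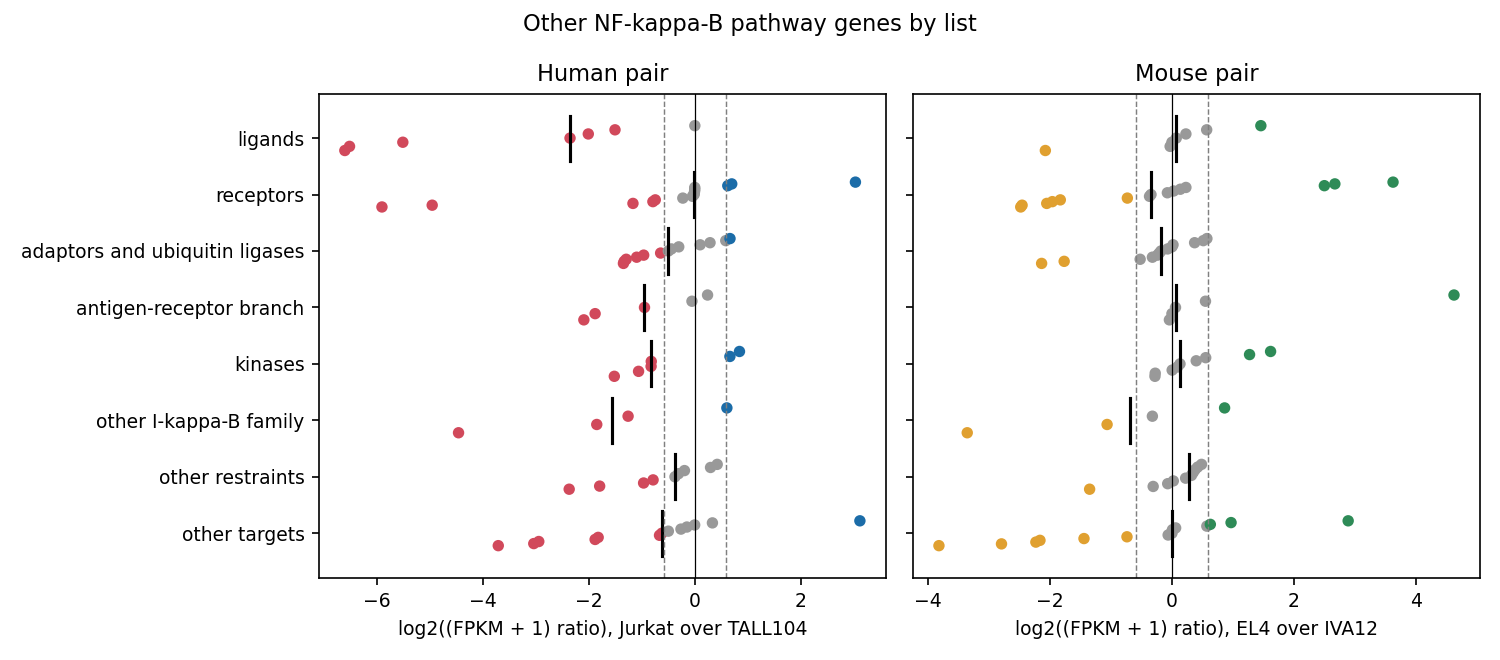
Log2 ratio of FPKM + 1 for the other pathway genes by list, 1 point per gene, coloured past 1.5-fold (dashed lines) and grey within it, with a black bar at the median of each list. Human points lean toward TALL104, 38 of 72, and mouse points go both ways, with 11 of 78 higher in EL4 and 18 in IVA12. Of human genes at 1 FPKM or more in either line 28.4% were higher in TALL104. Of such mouse genes 23.8% were higher in EL4 and 26.5% in IVA12.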

How the data were processed

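Messenger RNA of 4 cell lines was sequenced with a stranded poly(A) kit, 1 library per line. Per the study's methods, reads were aligned with STAR 2.5.1b to a combined hg19 and mm10 reference made for Cell Ranger 1.2.0 and counted per gene with featureCounts 1.6.3. The authors deposited FPKM, and the gene lengths behind them and the strand setting of counting are not given in the sources used here. There were 0 unused columns.

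Reads were recovered by solving each library for whole reads over gene lengths up to 300000 bases, with 100% of values whole at a relative tolerance of 1e-11. The total that scales the FPKM was 34783047 counted reads for Jurkat, 28345951 for TALL104, 32149319 for EL4 and 25286728 for IVA12. Where a recovered length missed a factor shared by the gene's reads, its interval is too wide and its reads are too few. Comparisons of reads between genes can then be wrong. Log2 ratios used a pseudocount of 1 FPKM with a delta-method interval. Folds are ratios of FPKM with exact conditional binomial intervals, levels have exact Poisson intervals, and shares of subunits and differences between ratios have normal approximations. No filter on low values was applied unless stated. The calculation was tested on simulated data.

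Positions came from GENCODE human release 44 mapped to hg19 and mouse release M21 on mm10, and promoters from RefSeq on GRCh38.p14. The members, the pathway and marker lists, and the rule that names the 2 genes of each list with the largest ratio per pair were chosen with earlier results of these data known. The rule also names kinase and antigen-receptor branch genes listed at 0, and the 3 genes nearest to the member with the largest ratio in each pair. Some genes that the rule or a marker list would name are not reported here. The alternatives were pseudocounts of 0.1 and 0.01, 3 scalings, a 2-fold threshold, a minimum of 1 FPKM in either line, other detection limits, and shares of reads. Python 3.11.15, NumPy 2.4.6, pandas 2.3.3, SciPy 1.17.1 and matplotlib 3.10.9 were used.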

Additional observations from a re-analysis of the deposited data

Results flagged for a closer look

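Reads on the members of the other species were looked at because they lie outside the comparisons, and a library above the limit of 3 reads is given here. TALL104 had 4 reads on the 10 mouse members, EL4 had 7 on the 10 human members and IVA12 had 16 on the 10 human members, while Jurkat had 3 on the mouse members. In IVA12 they fell on 8 human members. They came to 0.0174%, 0.047% and 0.165% of the reads on the members of the library's own species, and no member of the other species was above 0.05 FPKM in any of these libraries. The source of these reads was not tested.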

How the results depend on the processing

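No paired analysis was possible because each line has 1 library, and for the same reason no replicate could be left out. No member changed direction under the alternatives run. The median ratio of the human members, −0.97, became −1.06 and −1.07 with pseudocounts of 0.1 and 0.01, −1.08 after scaling by the median ratio, and −1.07 after scaling to own-species totals without mitochondrially encoded genes. The last 2 scalings brought the human members past the threshold from 7 to 8, with RELA at −0.64 in both. At 2-fold, 5 human members remained past it, all higher in TALL104, and 5 mouse members, 3 higher in EL4 and 2 in IVA12. The other human pathway genes past the threshold fell from 46 to 29 at 2-fold, 2 higher in Jurkat and 27 in TALL104. With pseudocounts of 0.1 and 0.01 the other mouse pathway genes past the threshold were 39 and 42, against 29, and their split went from 11 in EL4 and 18 in IVA12 to 19 and 20, and 21 and 21. Shares of all genes were computed only at 1.5-fold on FPKM + 1 without scaling. The counts at 2-fold, with other pseudocounts and after scaling therefore have no such share beside them. Counting error alone is covered, and the spread between cultures of a line was not measured. Intervals of the FPKM folds were widest for Traf1, with 25 and 19 reads, Nfkbie, with 34 reads in IVA12, and RELB, with 69 in Jurkat.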
